A study of Drosophila melanogaster with 8 samples.

Results

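3LHet is a scaffold of genome build dm3 that holds sequence mapped to the heterochromatin of the left arm of chromosome 3 but not joined to the assembled arm. Every 1 kb window of the scaffold was taken, from position 1 to 2555491, which gave 2556 of the 168744 windows listed for the genome (1.51%). Windows were measured by chromatin immunoprecipitation sequencing (ChIP-seq) with an antibody to H3K9me3, histone H3 trimethylated on lysine 9, in ovaries of adult Drosophila melanogaster. All flies carried the MTgal4 driver, were kept at 24 °C and had eaten yeast for 2 to 3 days before dissection. They carried 1 of 2 short hairpins, shSov, named for Sov, or shW, taken as the control. Each genotype had 2 ChIP libraries and 2 input libraries, made from lysate set aside before the antibody was added. Libraries of the same genotype and replicate number, 1 ChIP and 1 input, were treated as 1 lysate, which gave 4 lysates. The labels do not say that replicates came from separate flies, so p-values measure the spread between these libraries, which may be technical.

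H3K9me3 marks constitutive heterochromatin, the condensed and repeat-rich DNA around centromeres. The mark is bound by HP1 proteins, which recruit the methyltransferases that write it on neighbouring nucleosomes, so that marked chromatin forms long domains. Sov (Small ovary) is a zinc finger protein of the fly ovary known to act with HP1a, and the title of the series names it as a requirement for deposition of the mark in germ cells. MTgal4 is a driver of germ cells, whereas an ovary also contains somatic follicle cells. In whole ovaries, fewer germ cells and less mark per germ cell cannot be told apart. The level of Sov was not analysed here.

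Most of the scaffold did not pass the input filter. Enrichment was computed as log2((ChIP + 1)/(input + 1)) from RPKM (reads scaled to the length of the window and the size of the library), for windows whose mean input over the 4 inputs reached 2 RPKM. On 3LHet 865 windows (33.8%) passed and 1691 (66.2%) did not, while 117126 windows (69.4%) passed in the genome. The scaffold of the right arm, 3RHet, passed 607 of 2518 windows (24.1%), and the last 1 Mb of the assembled arm 3L, called proximal 3L here, passed 540 of 1001 (53.9%). On 3LHet 579 windows (22.7%) held no read in any input, and 562 of them held none in any library. The windows without an input read held between 8 and 23 ChIP reads in all in the single ChIP libraries, so they carried almost no signal of either kind.

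The windows that did not pass were clustered. Unbroken stretches of at least 10 such windows numbered 40 and covered 1241 kb. The longest unbroken stretch ran 185 kb, from 1823001 to 2008000, and only single tested windows separated it from the next stretches, which ended at 2129000. The next ran 148 kb, from 22001 to 170000, and 101 kb, from 946001 to 1047000. The first 2 bins of 100 kb therefore held 14 and 8 tested windows, and the bin from 1900001 to 2000000 held 0. The threshold itself separated windows of similar enrichment. The 138 windows just inside it, with 2 to 2.5 RPKM of input, averaged 1.92 and 1.87 in the shSov lysates, against 1.92 and 2.02 in the shW lysates. The 248 windows just outside, with 1.5 to 2 RPKM, averaged 1.88 and 1.82 in shSov, against 1.88 and 2.03 in shW. The 865 tested windows held 76.1% to 82.0% of the reads of the scaffold in the 8 libraries.

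Depth differed between libraries. The totals ran from 4208693 reads in shW ChIP replicate 1 to 27962050 reads in shSov input replicate 1. The median tested window of 3LHet held 285 and 97 reads in the shSov ChIP libraries, against 79 and 128 in the shW ChIP libraries. In the inputs it held 113 and 101 reads in shSov, against 51 and 39 in shW. The scaffold took 2.31% and 2.27% of the shSov ChIP reads, against 2.43% and 2.68% of the shW ChIP reads. The widest 95% Wilson interval of these shares, for shW replicate 1, was 2.41% to 2.44%. Its share of input reads was 0.474% and 0.463% in shSov, against 0.466% and 0.498% in shW. Both shSov ChIP shares lay below both shW ChIP shares, while the input shares of the genotypes overlapped (two-sided exact permutation test, p = 0.667). A count of 3 reads in a 1 kb window corresponded to between 0.107 and 0.713 RPKM, and intervals and floors cover counting error only, since amplified reads are not independent molecules.

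One lysate stood apart. Over the 865 tested windows, enrichment in shW replicate 1 correlated with the other 3 lysates at Pearson's r of 0.55 to 0.63, whereas the other lysates correlated with each other at 0.88 to 0.91. These are correlations across windows that share libraries, not across replicates. The SD of enrichment over windows was 0.56 and 0.59 in the shSov lysates, against 0.41 and 0.67 in the shW lysates, so the 3LHet profile of shW replicate 1 was the flattest. On 3RHet the SD was 0.63 and 0.70 in shSov, against 0.43 and 0.74 in shW. The order differed on the arms of chromosomes 2 and 3 without the 1 Mb nearest the centromere. The SD there was 0.38 and 0.48 in shSov, against 0.69 and 0.55 in shW. When the 865 windows of 3LHet were ordered by their shSov level, they were split into 4 classes of nearly equal size. The lowest class averaged 1.16 and 1.11 in the shSov lysates, against 1.73 and 1.25 in the shW lysates. The highest class averaged 2.54 and 2.57 in shSov, against 2.31 and 2.80 in shW, so shW replicate 1 was above the others at the low end and below them at the high end. Sorting on the shSov level draws a lysate that correlates less with shSov toward the middle. The classes are therefore a description and no separate sign of a flat profile. A lysate lay at least 0.5 above all others in 0 windows for shSov replicate 1 and 2 for shSov replicate 2, against 101 for shW replicate 1 and 32 for shW replicate 2. Counts of the replicate ChIP libraries differed with a chi-square of 1.44 per degree of freedom in shSov, against 4.55 in shW, and the replicate inputs gave 1.11 in shSov and 1.21 in shW. Results are therefore also given without shW replicate 1 where it moves them. It is also the lysate with the shallowest ChIP library. Whether depth has a part in its flat profile was not tested on the profile itself; with all libraries thinned to the smallest total the mean difference on 3LHet was -0.16.

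**Figure D1:**
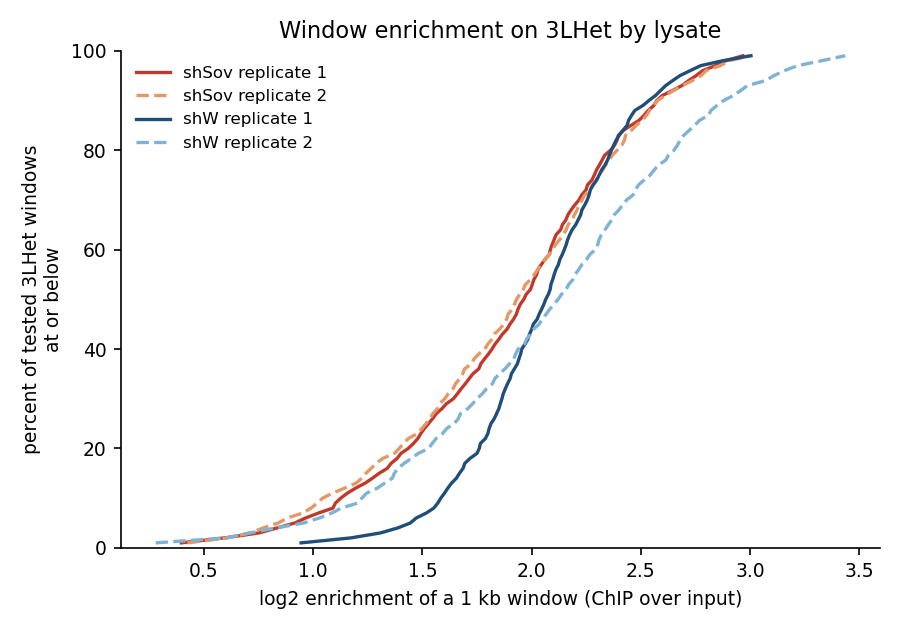
Share of the 865 tested 3LHet windows (y axis, percent) at or below each log2 enrichment of ChIP over input (x axis), 1 line per lysate. The line of shW replicate 1 starts to climb latest, with a 5th percentile of 1.44 against 0.96 in shW replicate 2, and the line of shW replicate 2 reaches farthest to the right.

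H3K9me3 covered nearly all of the tested windows of the scaffold, in both genotypes. An enrichment of at least 2-fold in both replicates was found in 778 of the 865 windows (89.9%) in shSov and in 816 (94.3%) in shW. Over all tested windows of the genome these shares were 5.8% in shSov and 7.23% in shW. The neighbouring heterochromatin was similar, with 87.6% in shSov and 94.4% in shW on proximal 3L, and 81.9% and 90.9% on 3RHet. On 3LHet 768 windows met the criterion in both genotypes, 10 in shSov only and 48 in shW only. At least 4-fold enrichment in both replicates was found in 337 windows (39.0%) in shSov and in 364 (42.1%) in shW. Each shSov lysate alone had fewer enriched windows, 807 and 794, than either shW lysate, with 855 and 817. The gap of the mean counts was -16.5 windows without shW replicate 1 and -54.5 without shW replicate 2.

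The mean enrichment over 3LHet was high in all 4 lysates and lower in shSov. It was 1.90 and 1.88 in the shSov lysates, against 2.05 and 2.07 in the shW lysates. Neither shSov lysate reached the lower shW lysate, and the gap between genotypes was larger than the gap between replicates. The means were 1.89 ± 0.010 in shSov and 2.06 ± 0.015 in shW (SD, n = 2 lysates each), a difference of -0.17 on the log2 scale. An exact permutation test (two-sided) of this difference had p = 0.33, and 2 lysates against 2 cannot go lower. Without shW replicate 1 the difference was -0.18 and without shW replicate 2 it was -0.16. In linear terms the mean ChIP value of the tested windows was 20.3 and 20.1 RPKM in shSov, against 22.6 and 24.3 RPKM in shW. Their mean input value was 4.31 and 4.22 RPKM in shSov, against 4.42 and 4.68 RPKM in shW.

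These differences are relative to the rest of each library, since no reference chromatin added to the samples is described. Over the distal autosomal arms, the arms of chromosomes 2 and 3 without the 1 Mb nearest the centromere, mean enrichment was -0.26 and -0.32 in shSov, against -0.55 and -0.40 in shW, a difference of 0.18 in the other direction. Centred on those arms, the 3LHet difference was -0.35. The difference also did not depend on the windows that passed. The log2 ratio of summed ChIP to summed input RPKM over all 2556 windows was 2.28 and 2.29 in shSov, against 2.38 and 2.43 in shW, a difference of -0.12 (exact permutation p = 0.33). Over the 1691 windows that did not pass it was 2.45 and 2.42 in shSov, against 2.49 and 2.64 in shW, a difference of -0.13. Over the tested windows it was 2.23 and 2.26 in shSov, against 2.35 and 2.38 in shW. By mean enrichment per window, the 1112 windows with input above 0 and under 2 RPKM were lower than the tested ones, at 1.30 and 1.24 in shSov, against 1.31 and 1.43 in shW.

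The size of the difference varied with the input. Among windows with 2 to 3 RPKM of input it was -0.11 (243 windows), with 3 to 5 RPKM it was -0.15 (342 windows), and with 5 to 10 RPKM it was -0.26 (272 windows). The pseudocount of 1 RPKM pulls the values of poorly covered windows toward 0, and its part in this order was not tested. Input also went with position. From 2400001 to 2500000 the mean input of tested windows was 6.30 and 6.11 RPKM in shSov, against 7.53 and 7.85 RPKM in shW. The difference in enrichment there was -0.41. Input and position were not told apart. In the class from 5 to 10 RPKM the lysates averaged 1.89 and 1.90 in shSov, against 2.19 and 2.11 in shW. The 8 windows with at least 10 RPKM stood apart, at 0.65 and 0.70 in shSov, against 0.59 and 0.38 in shW. Of these 8 windows, 5 lay in 1 short stretch that is described with the lowest windows.

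The neighbouring heterochromatin had similar levels in shW and more negative genotype differences, though the tests of the contrasts did not separate them. On 3RHet mean enrichment was 1.75 and 1.76 in shSov, against 2.07 and 2.06 in shW, a difference of -0.31. On proximal 3L it was 1.83 and 1.80 in shSov, against 2.15 and 2.05 in shW, a difference of -0.28. In shW the 3 regions lay between 2.05 and 2.15, and in shSov 3LHet was the highest of the 3. The difference 3LHet minus 3RHet was 0.14 and 0.12 in the shSov lysates, against -0.02 and 0.01 in the shW lysates. The two-sided exact sign-flip test over the 4 lysates gave p = 0.375 for its mean of 0.06, and 4 lysates cannot bring this test below 0.13. The genotypes differed in it by 0.14, with both shSov lysates above both shW lysates (exact permutation p = 0.33, also after adjustment over the 3 contrasts tested in this way). The difference 3LHet minus proximal 3L was 0.06 and 0.08 in shSov, against -0.10 and 0.02 in shW, with a mean of 0.01 (exact sign-flip p = 0.875) and a genotype difference of 0.11 (exact permutation p = 0.33). Against the mean of all 4 inputs the genotype difference in 3LHet minus 3RHet was -0.20, and over all windows with a read it was -0.07, so its direction depended on how the input entered. The genotype difference against proximal 3L was 0.06 with shW replicate 1 left out.

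**Figure D2:**
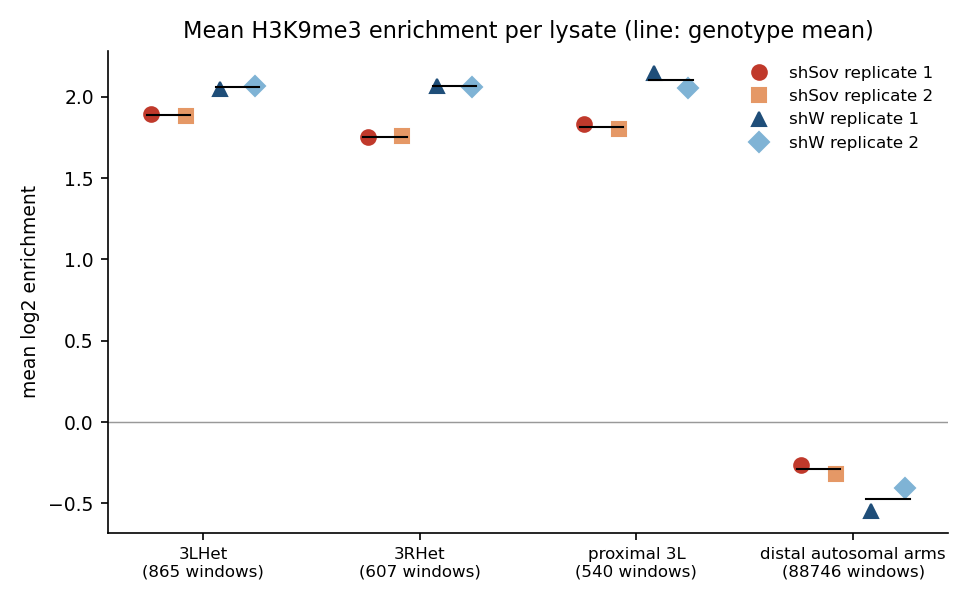
Mean log2 enrichment of ChIP over input (y axis) of each lysate over the tested windows of 4 regions (x axis), with shSov left of shW; lines are genotype means. Both shSov points lie below both shW points on 3LHet, 3RHet and proximal 3L, with differences of -0.17, -0.31 and -0.28, and above them on the distal autosomal arms.

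Along the scaffold the level changed over short distances. Of the 26 bins of 100 kb, counted from position 1, 17 held at least 20 tested windows and are described (788 windows). Their mean enrichment over the 4 lysates ran from 1.67 to 2.33, with a median of 1.99. The highest was bin 15, from 1400001 to 1500000 (28 tested windows), with 2.30 and 2.30 in shSov, against 2.09 and 2.64 in shW. The shW lysates disagreed there by more than the genotypes did. Bin 5, from 400001 to 500000 (48 windows), followed with 2.20 and 2.15 in shSov, against 2.12 and 2.28 in shW, and bin 4, from 300001 to 400000 (37 windows), had 2.11 and 2.09 in shSov, against 2.12 and 2.25 in shW. The genotypes overlapped in bin 5 and were separated by less than the spread of shW in bin 4.

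The lowest level was in bin 3, from 200001 to 300000, directly before those 2 high bins. Its 74 tested windows averaged 1.58 and 1.59 in shSov, against 1.82 and 1.71 in shW, and 55 of them were enriched in shSov and 60 in shW. Bin 16, from 1500001 to 1600000 (25 windows), had 1.77 and 1.80 in shSov, against 1.79 and 1.87 in shW. Bin 13, from 1200001 to 1300000 (64 windows), had 1.82 and 1.79 in shSov, against 1.95 and 1.92 in shW. High and low bins thus lay next to each other, and no gradient of level ran along the scaffold (Spearman's rho of -0.11 between bin number and level, 17 bins that share the same libraries). The lysates did not share one order of bins. Across the 17 bins the shSov lysates correlated with each other at r = 0.98 and with shW replicate 2 at 0.89 and 0.93, but with shW replicate 1 at 0.20 and 0.27.

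**Figure D3:**
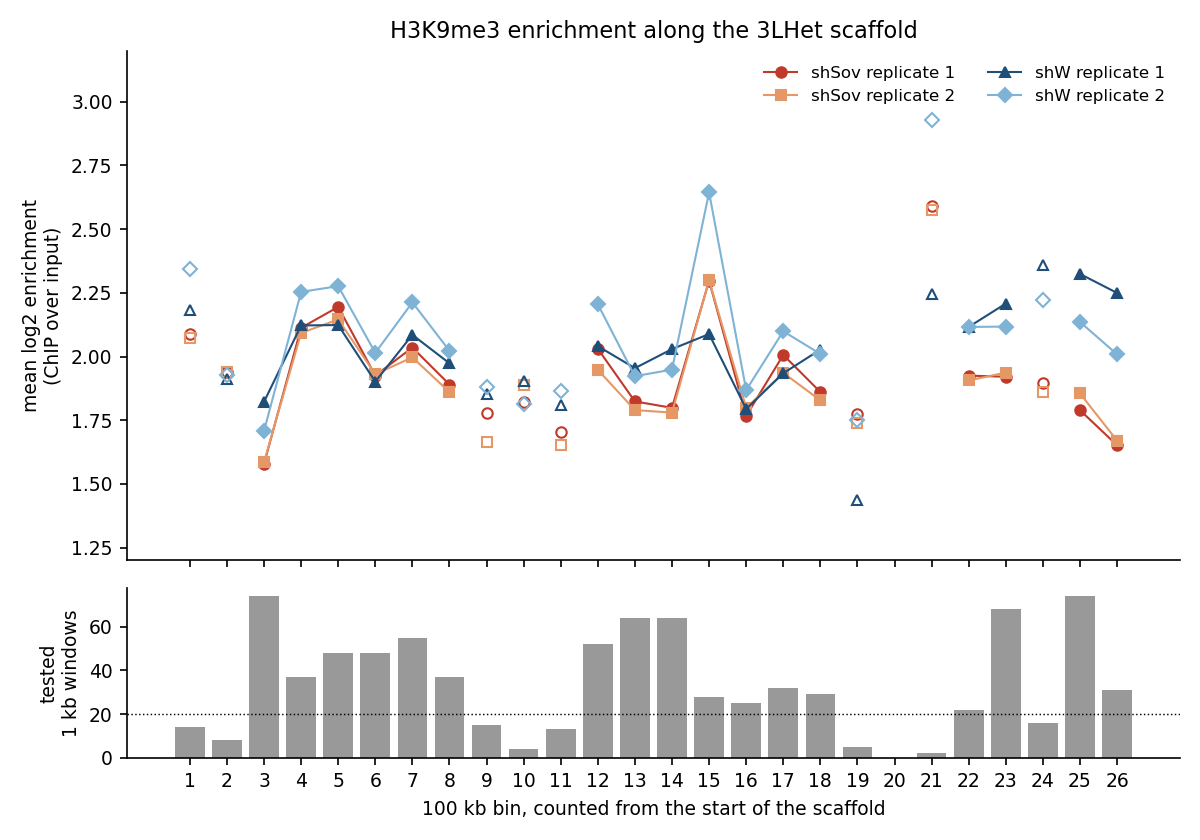
Mean log2 enrichment (upper panel, y axis) and number of tested 1 kb windows (lower panel) in each 100 kb bin of the scaffold (x axis, counted from its start). Points are lysates, open points mark the bins with fewer than 20 tested windows, and the dotted line marks 20; the 2 shSov lysates lie close together, shW replicate 2 peaks in bin 15 at 2.64, and both shSov points lie below both shW points in bins 22 to 26.

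Within bins, windows of similar level lay side by side. The level of neighbouring tested windows correlated at r = 0.71 at a distance of 1 kb (677 pairs), 0.21 at 5 kb (513 pairs) and 0.08 at 10 kb (460 pairs), so most of the structure was finer than the 100 kb bins. The genotype difference correlated at 0.39, 0.17 and 0.10 at the same distances. At 50 kb (371 pairs) it correlated at 0.17, where the level correlated at -0.10. Neighbouring windows share fragments and libraries, and these values are descriptions.

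The 5 highest single windows averaged 3.05 to 3.11 over the 4 lysates and lay in 4 places. The window from 2201001 to 2202000 had 2.89 and 3.00 in shSov, against 2.63 and 3.91 in shW. The adjacent windows from 2447001 to 2449000 had 2.96 to 3.19 in shSov, against 2.88 to 3.43 in shW. The window from 603001 to 604000 had 3.03 and 2.94 in shSov, against 2.97 and 3.26 in shW, and the window from 2008001 to 2009000 had 3.09 and 3.00 in shSov, against 2.57 and 3.54 in shW. The genotypes overlapped in each of these 5 windows, and shW replicate 2 was the highest lysate in all but the window at 2448001. The window at 2008001 is the first after the longest stretch without a tested window.

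Of the 865 windows, 8 were under 2-fold in all 4 lysates, and 6 of them formed a single stretch from 595001 to 601000. This stretch was picked out after its values were seen. Its mean enrichment was 0.31 and 0.52 in shSov, against 0.04 and -0.17 in shW. Both shSov lysates lay above both shW lysates. Its ChIP value was 12.5 and 13.9 RPKM in shSov, against 12.0 and 10.1 RPKM in shW, from 302 to 1241 reads. Its input value was 9.83 and 9.36 RPKM in shSov, against 11.4 and 11.5 RPKM in shW. The input was high for this scaffold: it averaged 10.5 RPKM over the 4 inputs, against 4.36 RPKM in the other tested windows of 3LHet, and the median tested window of the distal autosomal arms had 7.54 RPKM. Of the 8 windows of 3LHet with at least 10 RPKM of input, 5 lay in it. No gene annotation of dm3 was used here, so what the stretch contains is not stated.

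The edges of the stretch were sharp. The window 2 kb before it, at 593001, had 1.81 and 1.53 in shSov, against 2.31 and 2.04 in shW, and the window between, at 594001, had 0.31 and 0.47 in shSov, against 1.76 and -0.24 in shW. The shW replicates took opposite sides there. On the other side the window at 601001 had 1.47 and 1.21 in shSov, against 2.62 and 1.71 in shW, and the window at 603001, named above among the highest, lay 2 kb further. Enrichment thus passed from the lowest to the highest values of the scaffold within 3 kb. In both edge windows shW replicate 1 was the highest lysate.

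Inside the stretch 5 of 6 windows had a higher mean in shSov, the direction of 69.1% of all tested windows. At 595001 enrichment was 0.31 and 0.39 in shSov, against -0.27 and -0.48 in shW. edgeR's change was 0.78 with an SE of 0.27, and its Benjamini-Hochberg adjusted p was 0.20. At 597001 it was 0.25 and 0.78 in shSov, against -0.30 and -0.28 in shW, with a change of 0.81, an SE of 0.26 and an edgeR adjusted p of 0.16. The genotypes did not overlap in either window, and 34.6% of all tested windows had both shSov lysates above both shW lysates. Neither of the 2 windows passed the threshold of 0.05. At 597001 the input alone was lower in shSov (log2 change of -0.48, edgeR adjusted p of 0.0070), while the ChIP change of 0.36 had an adjusted p of 0.41. The other 2 windows under 2-fold were single. That at 1569001 in bin 16 had 0.07 and 0.70 in shSov, against 0.24 and -0.46 in shW, and that at 1250001 in bin 13 lay just under the criterion, at 0.95 and 0.82 in shSov, against 0.97 and 0.97 in shW.

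**Figure D4:**
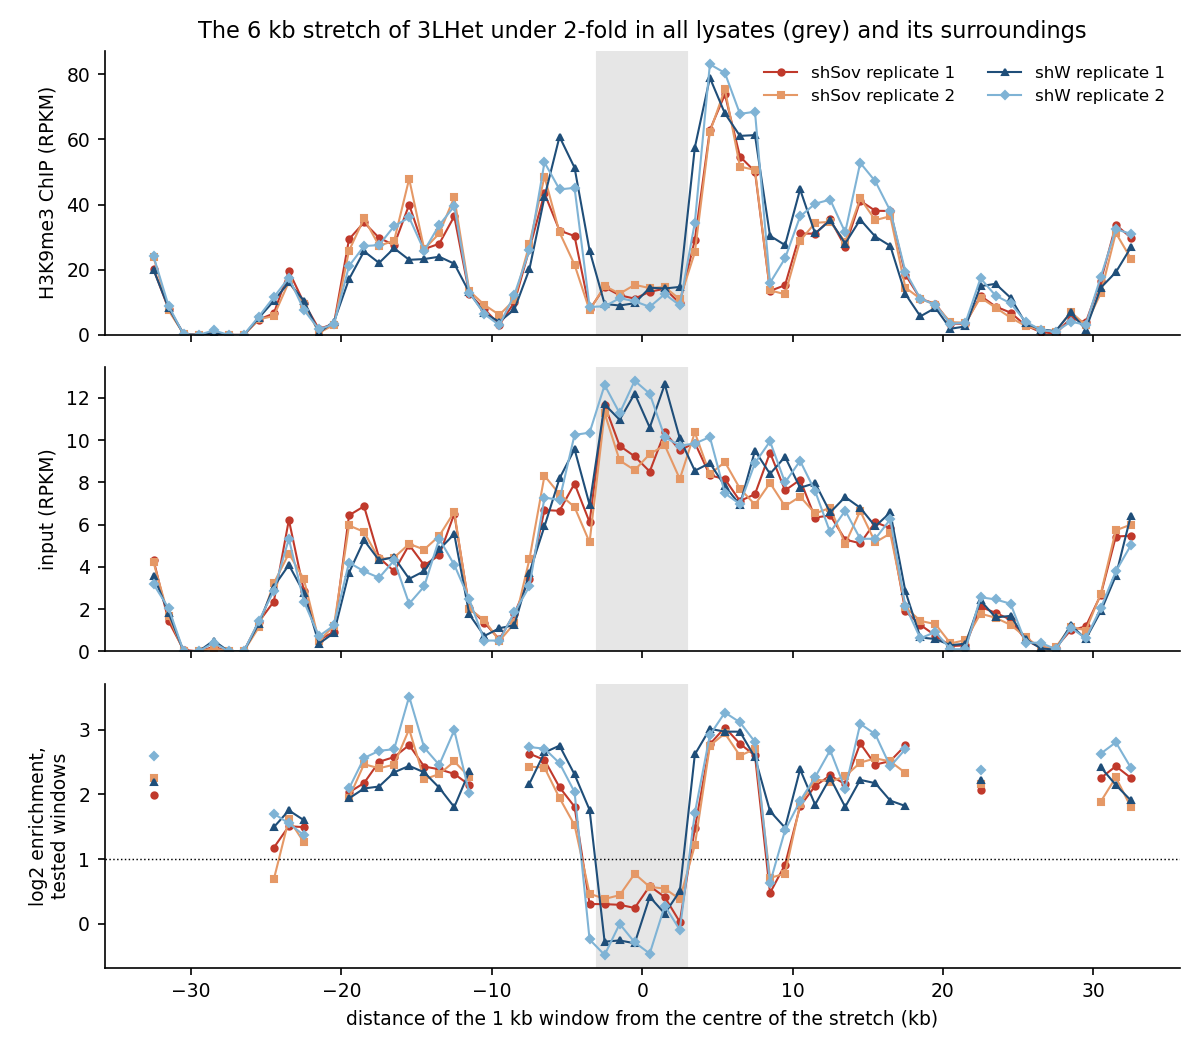
ChIP (top) and input (middle) in RPKM and log2 enrichment of tested windows (bottom) in 1 kb windows by distance from the centre of the 6 kb stretch (x axis, kb); lines join the values of a lysate, grey marks the stretch and the dotted line marks 2-fold. Input is highest inside the stretch in all 4 lysates, ChIP is low there and peaks 4 to 6 kb right of the centre.

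The genotype comparison of single windows ended in no call. edgeR's quasi-likelihood test of the change in enrichment, fitted on the counts of all 117126 tested windows and adjusted over all of them, called 0 of the 865 windows lower in shSov, where 0.595% were called in the genome. It called 0 higher, where 0.264% were called in the genome. At an unadjusted p under 0.05 edgeR found 66 windows lower (7.63%, against 4.45% of all windows) and 4 higher (0.462%, against 9.30%). limma called 0 lower and 0 higher on 3LHet (0.0965% and 0.0154% in the genome), and DESeq2 called 2 lower and 0 higher (0.852% and 0.0546%). With 1 shW lysate left out, the number of called windows depended on which control lysate was kept. The share over all windows is not reported for those fits. Their counts are listed only with the other settings and are not read as a result about 3LHet.

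The changes that were not called leaned downward. edgeR's change was negative in 659 of the 865 windows (76.2%), against 31.2% of all tested windows, and its median was -0.19 on 3LHet, against 0.19 over all windows. Relative to the median of all windows, the median of 3LHet was -0.38. With DESeq2's scaling 799 windows (92.4%) were negative, against 51.5% of all windows. Both shSov lysates lay below both shW lysates in 303 windows (35.0%, where 12.1% of all tested windows did so) and above both in 61 (7.05%, where 34.6% did so). Windows lower in shSov were thus more frequent than in the genome and windows higher in shSov less frequent, without a call for any of them. The middle 90% of the windows differed by -0.65 to 0.28 in mean enrichment.

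The 3 windows with the lowest adjusted p-values lay beyond 2200001 and were picked here for those p-values. The next windows lay elsewhere, at 19001 in bin 1 (edgeR adjusted p of 0.13) and at 1396001 in bin 14 (edgeR adjusted p of 0.16). At 2417001 to 2418000 enrichment was 1.10 and 0.64 in shSov, against 2.41 and 1.53 in shW, from ChIP values of 10.8 and 7.70 RPKM in shSov, against 27.6 and 18.2 RPKM in shW. edgeR's change was -1.06 with an SE of 0.28 and an adjusted p of 0.060. At 2236001 to 2237000 enrichment was 0.76 and 0.90 in shSov, against 1.90 and 1.71 in shW, and edgeR's change of -0.98 (SE 0.26) had an adjusted p of 0.064. Both windows were under 2-fold in at least 1 shSov lysate and over it in both shW lysates. At 2506001 to 2507000 enrichment was 0.91 and 0.98 in shSov, against 2.22 and 1.38 in shW (edgeR adjusted p of 0.13). Without shW replicate 1 the change at 2417001 was -0.57.

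In 100 kb bins most differences were negative. Mean enrichment over windows was lower in shSov in all 17 described bins, against 18.9% of all tested bins. The changes ran from -0.47 to -0.03, with a median of -0.13. In 12 bins both shSov lysates lay below both shW lysates, where 10.5% of the 1262 tested bins of the genome did so, and in 0 bins did both lie above, where 70.5% did so. Without shW replicate 1 all 17 bins were lower, and without shW replicate 2 it was 13. The change became more negative along the scaffold (Spearman's rho of -0.57 between bin number and change over 17 bins that share libraries; -0.55 without shW replicate 1 and -0.47 without shW replicate 2). The level of the single lysates moved in different ways with position, with rho of -0.35 and -0.25 in the shSov lysates, against 0.40 and -0.10 in the shW lysates.

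The largest differences lay in the last bins. In bin 26, from 2500001 to the end of the scaffold (31 tested windows), enrichment was 1.65 and 1.67 in shSov, against 2.25 and 2.01 in shW, a difference of -0.47. Mean ChIP values were 19.2 and 19.2 RPKM in shSov, against 32.4 and 30.5 RPKM in shW, and mean input values were 5.23 and 5.07 RPKM in shSov, against 6.02 and 6.60 RPKM in shW. In bin 25, from 2400001 to 2500000 (74 windows), enrichment was 1.79 and 1.855 in shSov, against 2.32 and 2.14 in shW, a difference of -0.41. The genotypes did not overlap in either bin, and the ChIP reads and the input reads were both lower in shSov. Bin 24, with 16 tested windows below the minimum, also differed by -0.41. Bin 23, from 2200001 to 2300000 (68 windows), had 1.92 and 1.94 in shSov, against 2.21 and 2.12 in shW, a difference of -0.23. The smallest differences were those of bins 6, 5 and 17, at -0.03, -0.03 and -0.05, where the genotypes overlapped.

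edgeR on the counts summed per bin called 0 of the 17 bins lower (0.238% in the genome) and 0 higher (0.0% in the genome). Its change was negative in 14 of the 17 bins, against 28.6% of all bins. It was slightly positive in bins 6, 13 and 16, at 0.04, 0.01 and 0.02. At an unadjusted p under 0.05 edgeR found 2 bins lower (11.8%, against 5.47% of all bins) and 0 higher (against 22.0% of all bins). For bin 26 its change was -0.42 with an SE of 0.14 and an adjusted p of 0.15, and for bin 25 it was -0.30 with an SE of 0.13 and an adjusted p of 0.17. limma on mean log ratios called 1 bin lower, bin 26, with an adjusted p of 0.024, and 0 higher (1.74% and 1.03% in the genome). DESeq2 called 6 lower and 0 higher (11.3% and 1.82%). Without shW replicate 1 edgeR's change was -0.31 in bin 26, -0.24 in bin 25 and -0.41 in bin 15. Without shW replicate 2 it was -0.53, -0.36 and 0.27, so bin 15 changed sign. In these fits the lone shW lysate is assumed to vary like the other groups. With 1 shSov lysate left out the change was -0.44 to -0.39 in bin 26 and -0.35 to -0.25 in bin 25. Which bins were called depended on the lysates kept, and genome shares of those fits are not reported.

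Position was also compared as 1 value per lysate. Windows from 1 to 1278000 (459 tested) averaged 1.92 and 1.89 in shSov, against 1.99 and 2.05 in shW, a difference of -0.12. Windows from 1278001 to 2555491 (406 tested) averaged 1.87 and 1.88 in shSov, against 2.12 and 2.09 in shW, a difference of -0.23. The earlier windows minus the later ones gave 0.04 and 0.01 in shSov, against -0.13 and -0.05 in shW. Both shSov lysates were above 0 and both shW lysates below it, and the genotypes differed by 0.12 (exact permutation p = 0.33, as low as the design allows). With shW replicate 1 left out this was 0.07.

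The inputs differed along the scaffold as well, in a comparison added after the files were seen. In 5 bins (12, 13, 23, 25 and 26) edgeR called the input lower in shSov, where 14.7% of bins were called lower in the genome, and in 5 bins (3, 4, 15, 17 and 18) it called it higher, where 15.1% were. In bin 13 the mean input was 3.73 and 3.55 RPKM in shSov, against 4.81 and 5.18 RPKM in shW (log2 change of -0.45, edgeR adjusted p of 5.8e-07). In bin 17 it was 3.33 and 3.44 RPKM in shSov, against 2.68 and 2.75 RPKM in shW (log2 change of 0.32). Bins of one direction lay together, and the genotypes did not overlap in bins 13 and 17. Among single windows 79 were lower in the shSov inputs (9.13%, against 4.36% of all windows) and 35 higher (4.05%, against 3.67%). Input changes of windows 50 kb apart still correlated at r = 0.25 (371 pairs), against 0.63 at 1 kb.

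The ChIP reads followed the inputs. Across the 17 bins the log2 change of the ChIP correlated with that of the input at r = 0.91 and rho = 0.95. In 16 bins both had the same sign. ChIP and input of the same genotype and number were treated as 1 lysate, which the labels do not state. On ChIP reads alone edgeR called 84 windows lower (9.71%, against 3.19% in the genome) and 2 higher (0.231%, against 2.84%). It called 4 bins lower, bins 12, 13, 25 and 26 (9.11% in the genome), and 0 higher (17.0%). In bin 13 the ChIP value was 16.9 and 16.1 RPKM in shSov, against 22.0 and 23.0 RPKM in shW. This log2 change of -0.44 nearly equalled the input change, and edgeR's change on the summed counts was 0.01. Mean enrichment over the windows of bin 13 differed by -0.13, with both shSov lysates below both shW lysates. In bins 25 and 26 the ChIP changes of -0.61 and -0.71 exceeded the input changes of -0.31 and -0.29. The part of the inputs in the enrichment differences was not tested further. edgeR called fewer bins by input when either shSov input was left out. A fit with 1 shSov input takes its spread from the shW inputs alone. It therefore does not show whether the input differences need both shSov inputs.

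**Figure D5:**
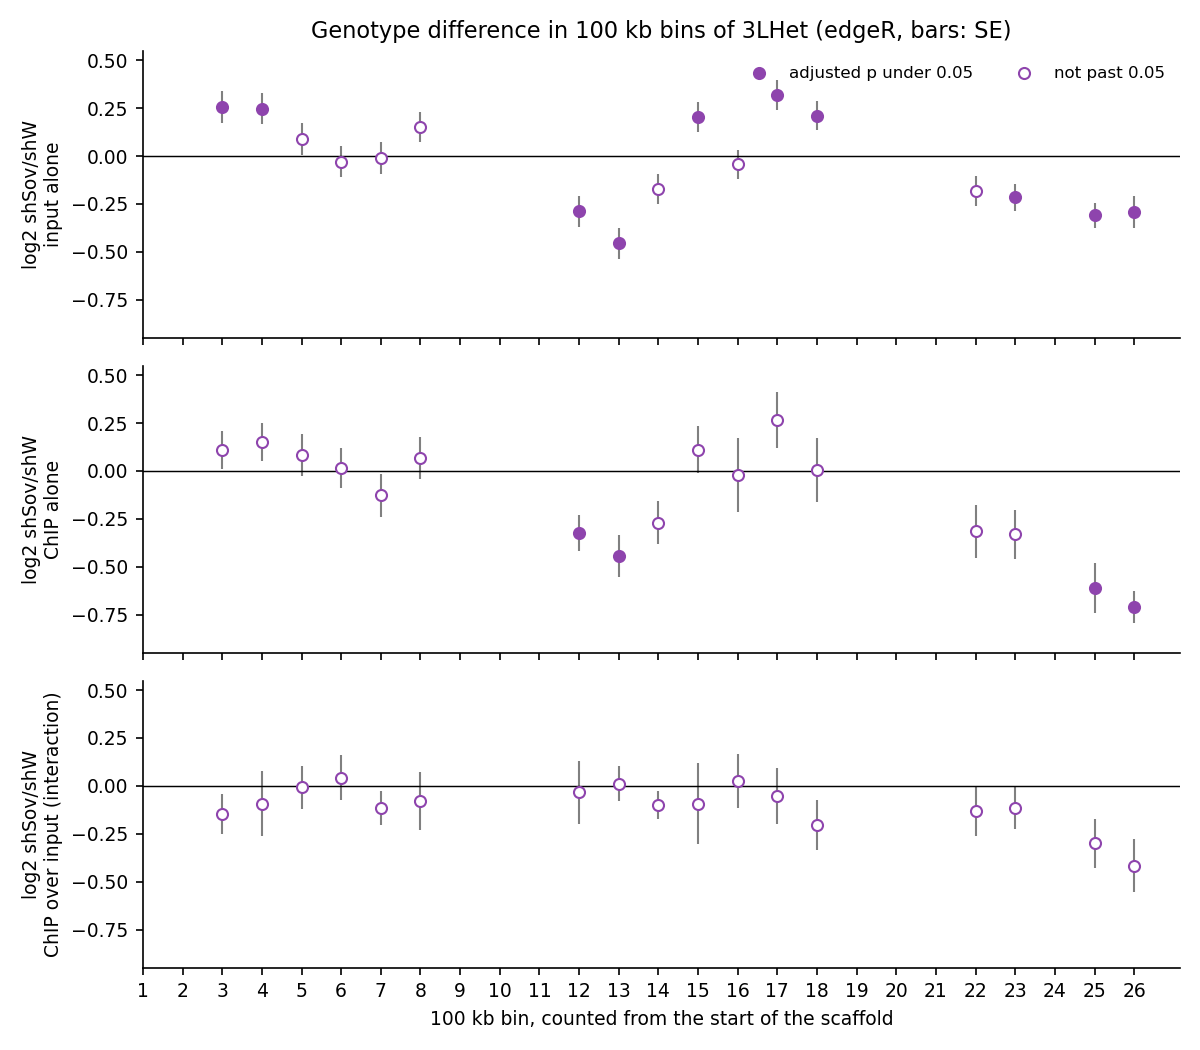
log2 change of shSov over shW (y axes, edgeR) in the inputs (top), in the ChIP libraries (middle) and in ChIP over input (bottom) for the 17 described 100 kb bins (x axis); bars are SEs and filled points have an adjusted p under 0.05. The upper panels share their pattern of bins, and in the bottom panel the lowest points are bins 25 and 26, at -0.30 and -0.42, with no point filled.

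Domains were described last. Windows enriched in both shW replicates formed 29 stretches of at least 10 windows, joined over gaps of 1, with a total of 517 kb. The longest ran 46 kb, from 2383001 to 2429000, with 1.75 and 1.79 in shSov, against 2.29 and 2.07 in shW, and mean ChIP values of 26.3 and 26.8 RPKM in shSov, against 41.9 and 37.7 RPKM in shW. The second ran 44 kb, from 216001 to 260000, with 1.54 and 1.55 in shSov, against 1.78 and 1.66 in shW, and ChIP values of 14.9 and 14.8 RPKM in shSov, against 13.8 and 14.0 RPKM in shW. In the second domain the ChIP values were higher in shSov while its input, at 4.14 and 3.93 RPKM in shSov, against 3.23 and 3.51 RPKM in shW, differed by more. The third ran 27 kb, from 1188001 to 1215000, with 2.16 and 2.01 in shSov, against 2.10 and 2.34 in shW, and the genotypes overlapped. Mean enrichment was lower in shSov in all 29 domains, with changes of -0.51 to -0.05 and a median of -0.15. The domains were chosen for high shW values, which favours lower shSov values, so these changes carry no test.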

How the data were processed

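Per the submitters' processing notes, the authors used Bowtie, bedtools and genome build dm3. How multiply mapping and duplicate reads were handled is not given in the sources used here. Reads from repeated sequence, of which heterochromatin largely consists, may have been kept, shared or dropped, and this bears on which windows hold input. Each deposited file gives per 1 kb window a raw read count and an RPKM value. The authors' RPKM equalled the deposited count divided by window length and library total in every window with a read, with a largest relative gap of 4.93e-12, so no input had been subtracted.

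Windows with a mean input of at least 2 RPKM were tested. Enrichment used a pseudocount of 1 RPKM. Changes were tested with edgeR 4.0.16 (quasi-likelihood F-test) as the interaction of genotype and antibody on the counts of all 8 libraries, with library totals as offsets and Benjamini-Hochberg adjustment over 117126 windows or 1262 bins of 100 kb with at least 20 tested windows, and a threshold of 0.05. The written design placed the counts in the wrong column of the files, and the column holding whole numbers was used. limma 3.58.1 on log2 ratios and DESeq2 1.42.0 were alternatives. Single values per lysate were compared by exact permutation tests (scipy 1.17.1), two-sided. The fits were tested on simulated data first. Alternatives were other scalings, filters, pseudocounts, bin sizes, blocks, equal depth and leaving out each lysate. Bins named in the text are the 3 highest and 3 lowest by level and by change, windows the 5 highest and 5 lowest by level, and domains the 3 longest. The scaffold, the bins and the lists were chosen with earlier results of these data known.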

Additional observations from a re-analysis of the deposited data

Results flagged for a closer look

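The earlier windows of the scaffold (1 to 1278000) minus the later ones (1278001 to 2555491) had opposite signs in the genotypes. The value was 0.04 and 0.01 in the shSov lysates, against -0.13 and -0.05 in the shW lysates, and the genotypes differed by 0.12. The exact permutation test of this difference gave p = 0.33, the smallest it can give.

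At 2 windows of the stretch under 2-fold, both shSov lysates were above 0 and both shW lysates below it. In the genome 34.6% of all tested windows had both shSov lysates above both shW lysates. At 595001 the genotypes differed by 0.72 in mean enrichment, and at 597001 by 0.80. The edgeR adjusted p-values of the change were 0.20 and 0.16.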

How the results depend on the processing

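The difference in mean enrichment on 3LHet was negative under every setting run, from -0.35 after centring on the distal autosomal arms to -0.13 over all windows with a read; without 1 lysate it ran from -0.18 to -0.16. The contrast of earlier and later windows stayed positive, at 0.07 to 0.26 (without 1 lysate 0.07 to 0.16). 3LHet minus proximal 3L, 0.01, was -0.0096 with a pseudocount of 5, -0.085 over all windows with a read and -0.0069 to 0.053 without 1 lysate; against the last 2 Mb of 3L it was 0.69, and its genotype difference was -0.0073. The genotype difference of 3LHet minus 3RHet was -0.069 over all windows with a read and -0.20 against the mean of all inputs. The difference in input share, -0.0137 percentage points, ran from -0.0297 to 0.00219 without 1 lysate, with the positive value without shW replicate 2. The cause of these turns was not tested. Enriched windows numbered 241 in shSov and 258 in shW with an input filter of 5 RPKM, which tests fewer windows, and 1427 and 1481 over all windows with a read, which tests more.

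edgeR's 0 lower windows became 2 after centring, 2 with the replicate block, 6 over all windows with a read and 84 from the ChIP alone, and 2 with DESeq2; its 0 higher windows became 2 from the ChIP alone. Without 1 lysate the counts ran from 0 to 72 lower and from 0 to 4 higher. The 0 lower bins became 6 with DESeq2, 1 with limma and 4 from the ChIP alone, and ran from 0 to 3 lower and 0 to 1 higher without 1 lysate. The replicate block called 0 bins lower and 0 higher. The highest counts of lower and higher windows without 1 lysate both came from the fit without shW replicate 2. Genome shares are reported only for limma, DESeq2 and edgeR's main, ChIP and input fits with all lysates. Counts of the other settings, and of every fit without 1 lysate, therefore do not show whether 3LHet differs from the genome. Lysates with the same number deviated from their genotype means with a correlation of r = -0.026 over all tested windows and 0.05 on 3LHet. Lysates of the same number thus shared almost no deviation, which does not show whether they were prepared together. For the input alone, 35 higher windows became 7 and 5 higher bins became 0 with a filter of 5 RPKM. Without 1 lysate the input counts ran from 13 to 96 lower and 3 to 31 higher windows, and from 0 to 7 lower and 0 to 6 higher bins. Of the 28 named bins and windows, the edgeR changes were followed for 7, picked for the most negative bin changes or the lowest window p-values. Those 7 kept their sign in the settings run, which the choice favours, and 4 passed the threshold in some setting. Other named bins did change sign. In bins 5, 6 and 15 edgeR's change was -0.09, -0.04 and -0.41 without shW replicate 1. Without shW replicate 2 it was 0.09, 0.13 and 0.27. The level changed sign in 3 windows near 0, those at 595001, 597001 and 1569001.

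An exact test of 2 lysates against 2 does not go below 0.33. The shallowest ChIP held a median of 79 reads in a tested window and the shallowest input 39, which limits the precision of single windows. A total of 66.2% of the windows of the scaffold did not pass the input filter.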
